A study of Mus musculus with 6 samples.

Results

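The 10 genes described here serve the uptake and transport of fatty acids across the vessel wall: Lpl, Gpihbp1, Lipg and Angptl4 act on lipolysis in the vessel lumen, Cd36, Fabp4 and Fabp5 on uptake and binding, and Meox2, Tcf15 and Pparg on transcription. The rule took them by gene name and used no measured value, although they were proposed with earlier results of these data known. All 10 are listed in the deposited table of 55401 genes, and 9 of them were among the 18438 genes with enough counts for a test, while Meox2 was not. The scarcest of the tested genes, Lipg, had at least 19 counts in every library.

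Kidney endothelial cells (ECs) were sorted as CD31+ CD45- cells from male mice, 3 per group and 1 library per mouse. Both groups carried 2 floxed alleles of Rbpj (Rbpjf/f), and both received 5 doses of 1.5 mg tamoxifen at 8 weeks of age, with medium chain fatty acids as the solvent. RbpjΔEC mice (RbpjDEC in the labels, Cre +/-) also carried Cdh5CreERT2, a tamoxifen-inducible Cre under the endothelial Cdh5 promoter, whereas CTRL mice were Cre-negative littermates (Cre -/-). Kidneys were taken 12 weeks after induction, and the labels give 21 weeks as the age at harvest, 1 week above the sum of both times. The sort holds ECs of all kidney vessels together, and a Cre-positive group without floxed Rbpj was not analysed here.

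Circulating triglycerides are split at the luminal face of capillaries by lipoprotein lipase, the product of Lpl. Parenchymal cells of muscle and fat make most of this enzyme, and the endothelial protein GPIHBP1 carries it to the lumen and holds it there. ECs then take up the released fatty acids through CD36 and bind them in the cytosol with FABP4 and FABP5. In the heart, Meox2 and Tcf15 form a pair of transcription factors known to sustain Cd36 and Lpl in ECs, and Notch signaling in adult heart ECs is known to influence fatty acid transport genes. The comparison of RbpjΔEC with CTRL asks how gene expression of kidney ECs differs after endothelial deletion of Rbpj, the nuclear mediator of Notch receptors.

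Total counts on genes were between 39649171 and 47726850 per library, and 3 counts, taken as the floor, were between 0.0634 and 0.0749 CPM (counts relative to the TMM-scaled library size). The number of genes with any count was 33764 in CTRL 1 and lay between 25629 and 26785 elsewhere. Rbpj itself had 28.1, 29.7 and 29.8 CPM in CTRL 1 to 3 and 28.9, 26.1 and 29.6 CPM in RbpjΔEC 1 to 3. These counts cover the whole gene and do not show the floxed part alone, so the group of each library rests on its label. The Notch target Hey1 had 16.7, 19.9 and 22.6 CPM in CTRL and 11.5, 8.92 and 14.6 CPM in RbpjΔEC. Its log2 fold change was -0.76, with edgeR quasi-likelihood adjusted p 0.0722 and DESeq2 adjusted p 0.00285. Of the 7 tested genes in a list of 8 Notch targets, edgeR called 1 higher and 0 lower and DESeq2 1 higher and 2 lower (Hey1 and Hey2), with 3 log2 fold changes above 0 and 4 below it. The called gene was Nrarp, a feedback inhibitor of Notch named after its values were seen, with 34.0 CPM in CTRL and 47.3 CPM in RbpjΔEC as group means (edgeR quasi-likelihood adjusted p 0.0377). The same test over all genes called 209 genes (1.13%) at an adjusted p under 0.05, with 0.559% of the tested genes lower in RbpjΔEC and 0.575% higher. The EC markers Pecam1 and Cdh5 lay between 1456 and 2324 CPM in all 6 libraries.

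Of the 9 tested members, 1 was called lower in RbpjΔEC and 0 were called higher, against 1.13% of all tested genes called in either direction. Unadjusted p values under 0.05 were held by 3 members with lower and 2 with higher values, against 17.5% of all tested genes in both directions together. DESeq2's Wald test called 1 member lower and 1 higher, against 1.52% of its genes. The log2 fold changes of the members ran from -0.84 to 0.72 with a median of -0.03, beside 0.01 over all tested genes. The CPM of the groups did not overlap for 7 of the 9 members, against 23.0% of all tested genes. Lpl fell, the values of Cd36 and Pparg were lower and those of Tcf15 and Fabp5 higher without passing the test, and the values of Fabp4 were close to equal.

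**Figure D1:**
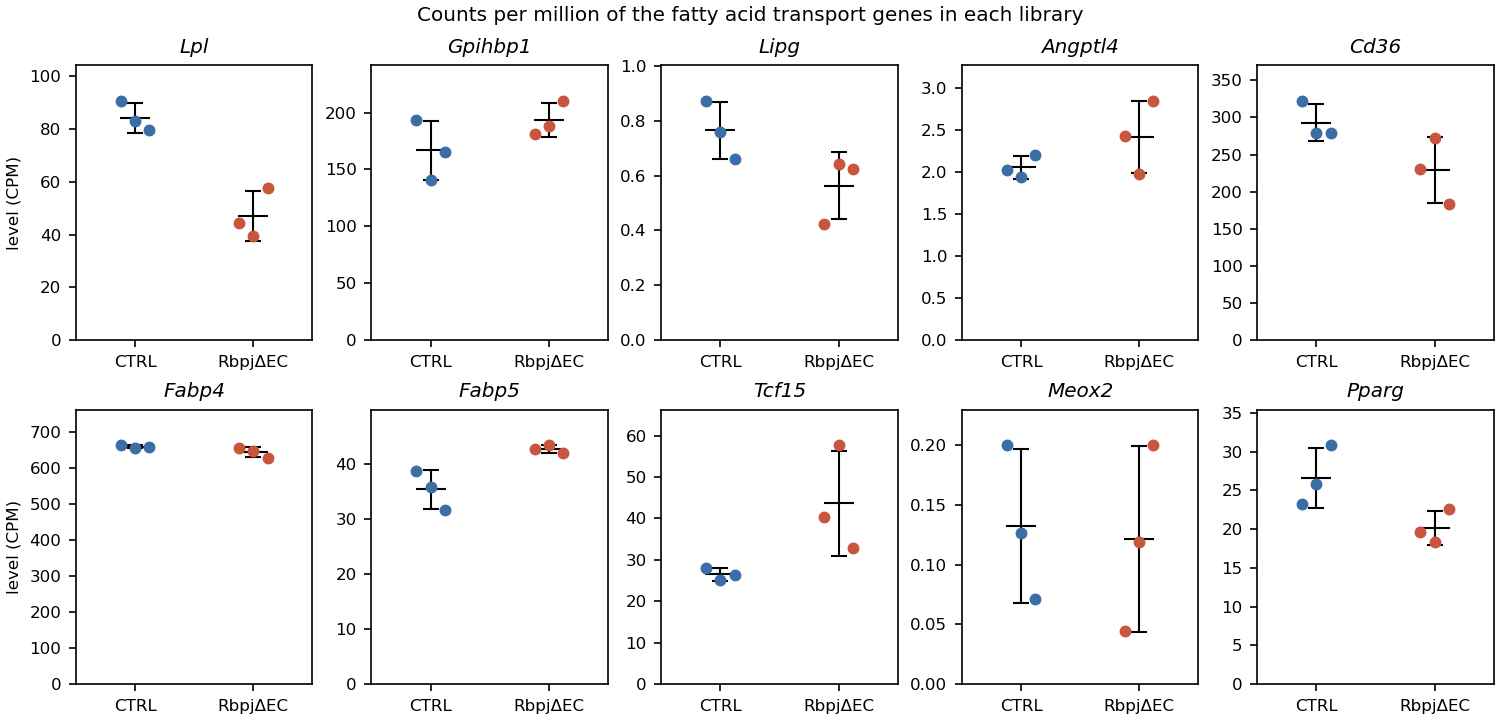
Level of each member (CPM, linear axes from 0, a scale of its own in each panel) in 3 CTRL and 3 RbpjΔEC libraries. Points are libraries and black lines are the mean ± SD (n = 3). Lpl lies between 79.5 and 90.6 CPM in CTRL and between 39.3 and 57.7 CPM in RbpjΔEC, while Fabp4 lies between 627 and 662 CPM throughout.

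Among the lipolysis genes, Lpl was the member that fell. Lpl (ENSMUSG00000015568.16, chromosome 8 of GRCm38 from 68880491 to 68907448, plus strand) had 90.6, 83.0 and 79.5 CPM in CTRL 1 to 3 and 44.3, 39.3 and 57.7 CPM in RbpjΔEC 1 to 3. Every RbpjΔEC library was below every CTRL library, and the group means were 84.4 ± 5.69 and 47.1 ± 9.50 CPM (SD, n = 3). The mean fell by 44.2%. The log2 fold change was -0.84 (standard error 0.128, 95% interval -1.13 to -0.55), with edgeR quasi-likelihood adjusted p 0.0212, rank 66 of all tested genes by p. Lpl kept its sign in all 13 alternative fits and passed in 10 of them. It did not pass without CTRL 1 (edgeR quasi-likelihood adjusted p 0.0780), without CTRL 3 (0.0917) or without RbpjΔEC 1 (0.105).

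Lpl is made in many cell types, and the marker lists of other cells moved in these libraries too. The 8 stroma genes summed to between 7.25 and 12.2 CPM in CTRL and between 2.07 and 4.62 CPM in RbpjΔEC. All 4 tested had a lower value, and edgeR called 1 (Pdgfra), beside 1.13% of all tested genes. DESeq2 called Pdgfra, Col1a2 and Col6a3 lower, beside 1.52% of its genes. The median log2 fold change of the 4 tested genes was -1.70, beside -0.84 for Lpl. The 10 mural genes, of smooth muscle cells and pericytes, summed to between 241.6 and 318.2 CPM in CTRL and between 193.6 and 221 CPM in RbpjΔEC. Most of this sum was Mcam, which ECs also express, with 158.5 to 210.2 CPM in CTRL and 138.9 to 176.7 CPM in RbpjΔEC. Without Mcam, a sum taken after seeing the data, the mural genes held 108, 87.8 and 83.1 CPM in CTRL and 44.4, 35.1 and 54.8 CPM in RbpjΔEC. All 9 tested mural genes had lower values in RbpjΔEC, and their median was -1.08 on the log2 scale. Of the 9, edgeR called 3, beside 1.13% of all tested genes. DESeq2 called Pdgfrb, Rgs5, Cspg4, Acta2, Myh11 and Notch3 lower, beside 1.52% of its genes. The 10 nephron tubule genes, with Slc12a3 highest in the CTRL mean, summed to 426.3, 292.2 and 291.7 CPM in CTRL and 163, 111 and 414.4 CPM in RbpjΔEC. This sum joins 5 proximal genes with higher values, 27.8 to 78.0 CPM in CTRL and 58.5 to 251.7 CPM in RbpjΔEC, and 5 genes of later segments with lower values, 213.7 to 398.5 and 48.1 to 162.7 CPM, a split made after seeing the data. None of the 10 was called by edgeR or DESeq2, and 4 had unadjusted p values under 0.05, beside 17.5% of all tested genes. Within each group the libraries stood in the same order as by Lpl for the mural sum without Mcam, for the later tubule genes and for the whole tubule sum. For the stroma list this held in RbpjΔEC but not in CTRL, and the proximal genes stood in another order in both groups. Orders of 3 libraries can match by chance, and the whole tubule sum contains the later genes. The part of these cells in the fall of Lpl was not tested, and in bulk RNA fewer cells of a type and less RNA per cell cannot be told apart.

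Adipocytes express Lpl, Cd36, Fabp4 and Pparg strongly, and their defining markers were near 0. Adipoq, the gene of the fat cell hormone adiponectin, had 4, 0 and 0 counts in CTRL and 1, 0 and 3 counts in RbpjΔEC. Retn and Lep had at most 2 counts in any library, and Slc36a2 had 0 in all 6. The 10 adipocyte genes summed to between 48.7 and 63.5 CPM in CTRL and between 50.5 and 63.5 CPM in RbpjΔEC, of which Lipe, expressed in other cells as well, made 48.4 to 63.3 and 49.99 to 62.89 CPM. Macrophages can also express Cd36, Fabp4, Lpl and Pparg. The 12 macrophage genes summed to between 19.4 and 27.6 CPM in CTRL and between 26.1 and 32.4 CPM in RbpjΔEC, where Cd68 was called higher and Mrc1 lower. Only Cd68 was higher of the 6 tested genes, from 9.97 to 24.05 CPM, and the median log2 fold change was -1.34. Without Cd68, a sum taken after seeing the data, the list held 7.14 to 20.6 CPM in CTRL and 3.91 to 7.29 CPM in RbpjΔEC. The group means of Csf1r, the receptor for a macrophage growth factor, were 2.37 and 0.798 CPM, and those of Ptprc, which encodes CD45, 2.59 and 0.957 CPM, neither called by edgeR and both named after their values were seen. Adgre1 and C1qb had at most 0.251 CPM as a group mean, and Trem2 had 0 counts. The sort took CD45- cells, and Ptprc had 55 to 157 counts in CTRL and 24 to 64 counts in RbpjΔEC. The part of macrophages in the values of Lpl, Cd36, Fabp4 and Pparg was not tested. The platelet and erythroid list, of cells that carry CD36, held 11.4 to 15.5 CPM in CTRL and 6.27 to 12.5 CPM in RbpjΔEC. Itga2b had the highest mean of this list in both groups, with 3.20 to 4.76 CPM over the 6 libraries. The lymphocyte list summed to at most 1.33 CPM in any library, led by Ighm in the CTRL mean and by Cd79a in the RbpjΔEC mean.

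The summed EC lists were lower in every RbpjΔEC library as well, and their part in the members' differences was not tested. The 14 pan-endothelial genes summed to between 23020 and 25150 CPM in CTRL and between 20910 and 21380 CPM in RbpjΔEC, with 0 called by edgeR and unadjusted p values under 0.05 for 1 gene with higher and 4 with lower values, beside 17.5% of all tested genes. DESeq2 called 4 of the 14 lower (Kdr, Flt1, Eng and Emcn), beside 1.52% of its genes. Kdr, the VEGF receptor and highest of this list, had 5658 to 6261 CPM in CTRL and 4924 to 5009 CPM in RbpjΔEC. The capillary list, which shares Kdr with this list, summed to between 28320 and 32650 CPM in CTRL and between 25530 and 26450 CPM in RbpjΔEC. Igfbp5, its highest gene, made 13070 to 15706 CPM in CTRL and 10870 to 11590 CPM in RbpjΔEC. Of its 10 genes, 9 had lower values and 1 a higher one. The groups did not overlap for 4 of the 10, beside 23% of all tested genes. The glomerular list, led by Ehd3, summed to between 1616 and 1897 CPM in CTRL and between 1180 and 1345 CPM in RbpjΔEC. EdgeR called 4 of its 8 genes lower (Tbx3, Gata5, Sema5a and Pi16), beside 0.559% of all tested genes called lower. DESeq2 called the same genes and Ehd3 lower. Relative to the summed pan-endothelial genes, the log2 fold change of Lpl was -0.64 (edgeR quasi-likelihood adjusted p 0.0286), on a scale where the median of all genes was 0.21.

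**Figure D2:**
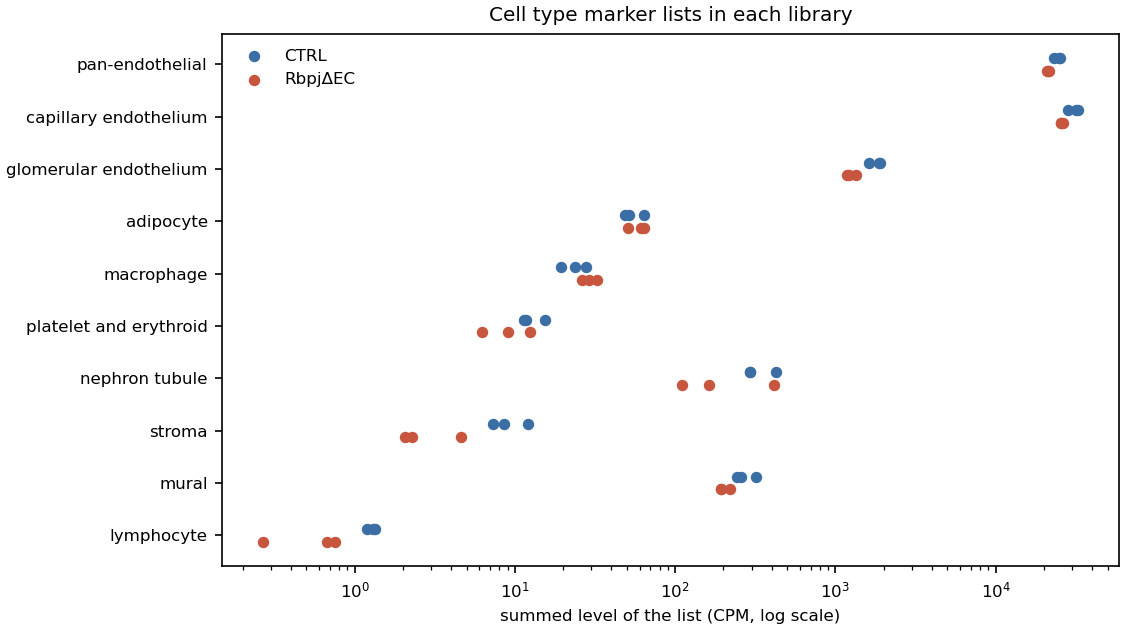
Summed level of each cell type marker list (CPM, log axis) in 3 CTRL and 3 RbpjΔEC libraries, 1 point per library. The stroma, mural, lymphocyte, glomerular, capillary and pan-endothelial sums are lower in all 3 RbpjΔEC libraries, whereas the adipocyte sums overlap.

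Gpihbp1, the anchor of lipoprotein lipase on capillary ECs, was expressed at a high level and did not pass the test. Gpihbp1 (ENSMUSG00000022579.10, chromosome 15 from 75596628 to 75599481, plus strand) had 193.5, 141.0 and 165.4 CPM in CTRL and 181.4, 188.4 and 210.1 CPM in RbpjΔEC. CTRL 1 lay within the range of RbpjΔEC, so the groups overlapped. On the log2 scale this was a difference of 0.21 (95% interval -0.03 to 0.45, edgeR quasi-likelihood adjusted p 0.338). Scaled to the pan-endothelial genes, Gpihbp1 passed with 0.42 (edgeR quasi-likelihood adjusted p 0.0351), and 0.10 to 0.33 was the range without 1 library in turn.

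Lipg encodes endothelial lipase, which acts mainly on the phospholipids of HDL. Lipg (ENSMUSG00000053846.5, chromosome 18 from 74939322 to 74961263, minus strand) was scarce, with 35, 36 and 28 counts in CTRL and 19, 27 and 25 counts in RbpjΔEC. On the CPM scale these were 0.873, 0.760 and 0.663 against 0.424, 0.644 and 0.624. The groups did not overlap, but the closest libraries of the groups differed by 1 count. The log2 fold change of -0.44 had a 95% interval from -1.30 to 0.42 (edgeR quasi-likelihood adjusted p 0.597), too wide at this depth to show a difference of this size.

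Angptl4 encodes a secreted inhibitor of lipoprotein lipase that fasting and hypoxia induce in several tissues. Angptl4 (ENSMUSG00000002289.16, chromosome 17 from 33773750 to 33781830, minus strand) had 2.02, 1.94 and 2.20 CPM in CTRL and 2.43, 1.98 and 2.84 CPM in RbpjΔEC. RbpjΔEC 2 lay within the CTRL range. On the log2 scale the difference was 0.23 (95% interval -0.31 to 0.77, edgeR quasi-likelihood adjusted p 0.666), within the spread of the libraries.

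Among the uptake and binding genes, Cd36 was lower in value, Fabp5 higher, and none passed the test. Cd36, the membrane receptor for long-chain fatty acids (ENSMUSG00000002944.15, chromosome 5 from 17781690 to 17888801, minus strand), had 322.1, 278.6 and 278.8 CPM in CTRL and 230.8, 272.5 and 183.8 CPM in RbpjΔEC. All RbpjΔEC libraries were below CTRL, but RbpjΔEC 2 was near the lowest CTRL library and RbpjΔEC 3 was far below it. The means were 293.2 ± 25.1 and 229.0 ± 44.4 CPM (SD, n = 3). Its log2 fold change was -0.36 (standard error 0.133, 95% interval -0.66 to -0.05, unadjusted p = 0.0265), and the edgeR quasi-likelihood adjusted p 0.217 did not pass. Without RbpjΔEC 3 the value was -0.22, and over the other single libraries left out it reached -0.50.

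PPARγ is known to raise Cd36 transcription. The values of Cd36 and Pparg were lower in RbpjΔEC without passing the test, and a link between the 2 was not tested. Their promoters are shown for description. RefSeq windows of 300 bases (GRCm38.p6, 250 before to 50 after a start site) were in the table used here for 3 of the 10 members, Cd36, Pparg and Meox2. They were searched on both strands for TGGGAA, the core of the RBPJ site, for AGGTCA, the hexamer bound by nuclear receptors, and for AGGTCANAGGTCA, the PPAR response element. Capitals mark the matches, in the gene's orientation, 5′ to 3′. The Cd36 window is chr5:17835847-17836146 on the minus strand, and the Pparg windows are chr6:115360894-115361193, chr6:115362099-115362398 and chr6:115421816-115422115 on the plus strand.
Cd36: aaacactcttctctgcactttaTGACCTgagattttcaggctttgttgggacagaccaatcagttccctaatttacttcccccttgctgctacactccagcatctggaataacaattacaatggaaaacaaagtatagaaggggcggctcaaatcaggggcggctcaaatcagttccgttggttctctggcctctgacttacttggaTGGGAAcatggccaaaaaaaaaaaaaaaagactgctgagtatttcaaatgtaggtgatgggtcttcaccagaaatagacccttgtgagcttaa
Pparg, start 1: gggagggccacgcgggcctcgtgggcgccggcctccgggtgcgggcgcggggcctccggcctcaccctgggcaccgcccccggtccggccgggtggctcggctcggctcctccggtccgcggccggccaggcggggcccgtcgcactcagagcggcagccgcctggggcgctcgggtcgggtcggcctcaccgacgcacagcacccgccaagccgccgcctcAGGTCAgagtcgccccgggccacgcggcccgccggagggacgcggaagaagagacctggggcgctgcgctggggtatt
Pparg, start 2: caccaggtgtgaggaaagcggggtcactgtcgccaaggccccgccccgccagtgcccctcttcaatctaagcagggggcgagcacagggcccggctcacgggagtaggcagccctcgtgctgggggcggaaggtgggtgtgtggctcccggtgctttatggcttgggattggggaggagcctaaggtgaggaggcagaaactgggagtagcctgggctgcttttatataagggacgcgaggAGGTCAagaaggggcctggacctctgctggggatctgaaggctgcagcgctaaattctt
Pparg, start 3: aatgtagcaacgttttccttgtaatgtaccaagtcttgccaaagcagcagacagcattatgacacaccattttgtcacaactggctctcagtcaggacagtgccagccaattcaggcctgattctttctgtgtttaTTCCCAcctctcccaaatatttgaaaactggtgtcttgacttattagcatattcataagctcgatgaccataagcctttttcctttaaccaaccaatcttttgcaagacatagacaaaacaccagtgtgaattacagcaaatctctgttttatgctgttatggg
The Cd36 window held 1 RBPJ core, from -43 to -38 relative to the start site, and 1 hexamer on the other strand from -228 to -223. This window lies within the annotated gene, whose 5′ end is at 17888801, so any start further upstream was not searched. The 3 Pparg windows held 1 hexamer each in the first and second and 1 RBPJ core in the third. Of all 32851 promoter windows of this length, 25.6% held the RBPJ core, 16.3% the hexamer and 0.0396% the full PPAR element, which none of these windows held. The Meox2 window, not printed, held 1 RBPJ core from -144 to -139. The counts per gene do not tell the 3 Pparg starts apart, and a match describes the letters only.

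Fabp4, the fatty acid binding protein of adipocytes and capillary ECs, had the highest CPM of the members and the smallest coefficient of variation in CTRL, 0.498%. Fabp4 (ENSMUSG00000062515.3, chromosome 3 from 10204088 to 10208576, minus strand) had 661.8, 655.6 and 657.0 CPM in CTRL and 654.7, 646.9 and 626.9 CPM in RbpjΔEC. The RbpjΔEC libraries were just below CTRL, and the means differed by -15.3 CPM. The log2 fold change of -0.03 (standard error 0.0654, 95% interval -0.18 to 0.11, edgeR quasi-likelihood adjusted p 0.824) changed sign with the scaling, to 0.01 with library size alone and to 0.16 relative to the pan-endothelial genes, where the median of all genes was 0.05 and 0.21. Fabp4 held between 48.6% and 53.8% of the members' summed CPM, which was 1294 ± 59.6 CPM in CTRL and 1222 ± 45 CPM in RbpjΔEC (SD, n = 3).

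Fabp5, which binds fatty acids in epidermis, ECs and macrophages (ENSMUSG00000027533.10, chromosome 3 from 10012548 to 10016607, plus strand), had 38.7, 35.8 and 31.7 CPM in CTRL and 42.7, 43.4 and 42.1 CPM in RbpjΔEC. The RbpjΔEC libraries were close together and above every CTRL library. In log2 terms the difference was 0.27 (standard error 0.0877, 95% interval 0.08 to 0.46, unadjusted p = 0.00933), and the edgeR quasi-likelihood adjusted p 0.141 did not pass, while relative to the pan-endothelial genes it was 0.47 and passed (0.0241). Fabp5 lies 187.5 kb from Fabp4, and Fabp9 and Fabp12 lie 6.8 kb and 35.6 kb from Fabp4 in the same cluster. Fabp9, known mainly from testis, had 5, 24 and 11 counts in CTRL and 36, 35 and 43 counts in RbpjΔEC, which gave 1.57 as log2 fold change and missed the threshold (edgeR quasi-likelihood adjusted p 0.142). Fabp12, whose values were looked up after the others, had at most 7 counts in any library. A Fabp5 copy, Fabp5l2, is annotated as a processed pseudogene, so Fabp5 counts can be affected where reads match both.

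Among the regulators, Tcf15 had higher values and Pparg lower ones, and neither passed the test. Tcf15, a basic helix-loop-helix factor (ENSMUSG00000068079.5, chromosome 2 from 152143561 to 152149097, plus strand), had 28.03, 25.05 and 26.35 CPM in CTRL and 40.3, 57.7 and 32.9 CPM in RbpjΔEC. Every RbpjΔEC library was above CTRL, but they were spread, with a coefficient of variation of 29.1% against 5.64% in CTRL. The means were 26.5 ± 1.49 and 43.6 ± 12.7 CPM (SD, n = 3). Its log2 fold change was 0.72 (standard error 0.190, 95% interval 0.28 to 1.17), with an unadjusted p of 0.00606 and edgeR quasi-likelihood adjusted p 0.119. DESeq2's Wald test gave nearly the same fold (0.72) and an adjusted p of 0.00194. Tcf15 also passed without RbpjΔEC 3 (edgeR quasi-likelihood adjusted p 0.00723), without a low-count filter and relative to the pan-endothelial genes, and in the other 9 of 13 alternative fits it did not.

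Meox2, the homeobox partner of Tcf15 in the heart (ENSMUSG00000036144.6, chromosome 12 from 37108540 to 37179534, plus strand), had 8, 6 and 3 counts in CTRL and 2, 5 and 8 counts in RbpjΔEC. These are at or near the floor of 3 counts, the groups overlapped, and an exact permutation test on the CPM gave p = 0.8 (two-sided, 3 against 3, smallest possible p 0.1). The paralog Meox1, looked at after its values were seen, had 120.1, 89.9 and 136.6 CPM in CTRL and 109.8, 113.9 and 92.7 CPM in RbpjΔEC. Its log2 fold change of -0.13 (95% interval -0.49 to 0.22, edgeR quasi-likelihood adjusted p 0.703) was within the spread of the libraries.

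Pparg encodes PPARγ, the nuclear receptor that drives fat cell differentiation and binds fatty acids and their derivatives. Pparg (ENSMUSG00000000440.12, chromosome 6 from 115360951 to 115490399, plus strand) had 23.2, 25.9 and 30.8 CPM in CTRL and 19.6, 18.3 and 22.6 CPM in RbpjΔEC. The highest RbpjΔEC library was just below the lowest CTRL library. For the group means this was -0.40 in log2 (standard error 0.120, 95% interval -0.66 to -0.14, unadjusted p = 0.00602), and the edgeR quasi-likelihood adjusted p 0.119 did not pass.

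The RbpjΔEC libraries did not rank alike across the members. RbpjΔEC 2 had the highest Tcf15, the highest Cd36 and the lowest Lpl and Pparg of its group. RbpjΔEC 3 had the lowest Tcf15 and Cd36 and the highest Lpl, Pparg, Gpihbp1 and Angptl4. The lower value of Cd36 rested most on RbpjΔEC 3, and the higher value of Tcf15 most on RbpjΔEC 2, without which its log2 fold change was 0.47.

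**Figure D3:**
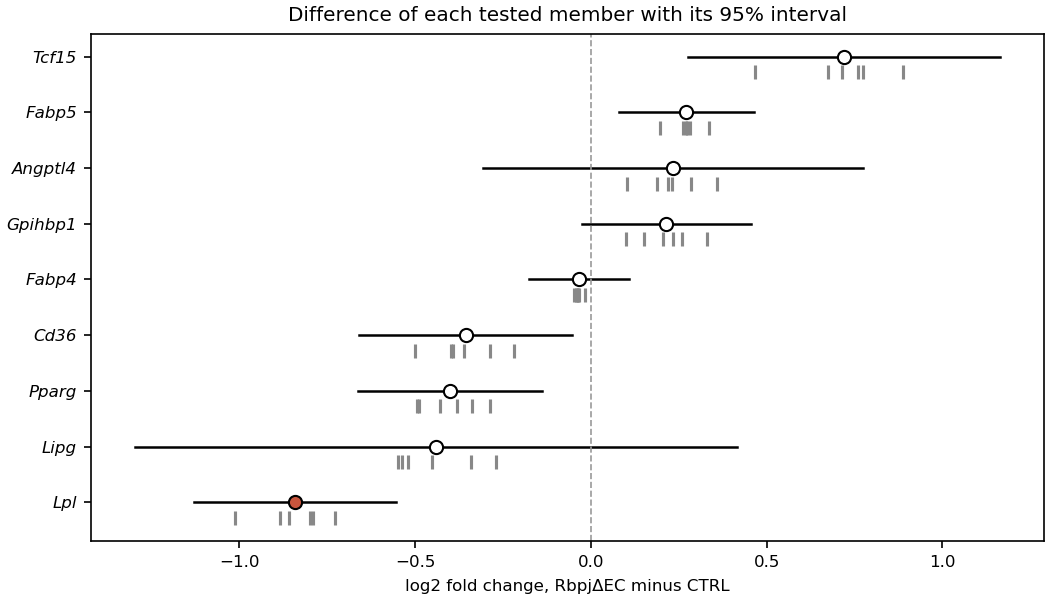
Log2 fold change of each tested member (RbpjΔEC minus CTRL, circles, filled where called) with its 95% interval as a line, and as grey ticks below it the values without 1 library in turn. The interval of Lpl, from -1.13 to -0.55, lies wholly below 0, and Fabp4 lies at -0.03.

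Levels can be compared between genes only per length. Per kb of exon of all annotated transcripts, Fabp4 led in CTRL with 146.6 ± 0.730 CPM per kb (SD, n = 3), followed by Cd36 with 81.7 ± 6.98, Gpihbp1 with 65.2 ± 10.3 and Tcf15 with 27.0 ± 1.52 CPM per kb. These 4 did not overlap with their neighbours in CTRL. Fabp5, Pparg and Lpl followed at 9.93 ± 0.984, 9.02 ± 1.30 and 8.05 ± 0.543 CPM per kb, and each overlapped the next in this order. Angptl4 at 0.580, Lipg at 0.162 and Meox2 at 0.0561 CPM per kb closed the order. In RbpjΔEC, Gpihbp1 (75.7 ± 5.85 CPM per kb) stood before Cd36 (63.8 ± 12.4), with overlapping libraries, and Lpl (4.50 ± 0.907) stood below Pparg (6.83 ± 0.739) without overlap. The lengths matter most for Fabp4, Fabp5 and Lpl, whose annotated exons lie in large part outside protein-coding transcripts. Over the exons of protein-coding transcripts alone, a choice made after seeing the data, Fabp4 was at 734.5, Fabp5 at 35.9 and Lpl at 20.5 CPM per kb in CTRL. Lpl then stood before Pparg (10.4 in CTRL) in both groups. Fabp5 then stood before Tcf15 (27.0) in CTRL, but after it in RbpjΔEC (43.3 against 44.5 CPM per kb).

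**Figure D4:**
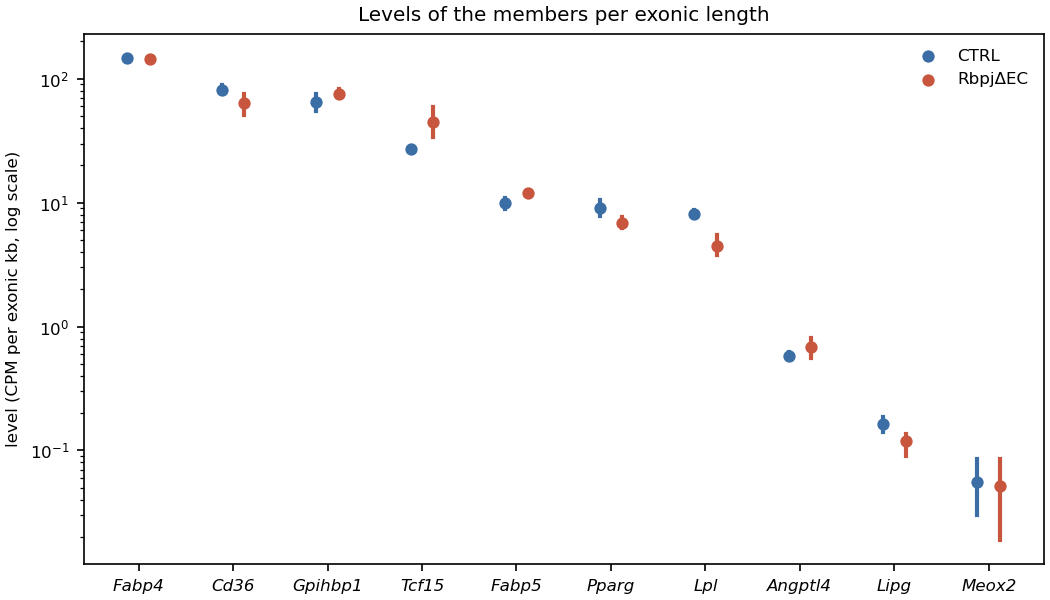
Level per exonic kb (CPM per kb, log axis) of each member in CTRL and RbpjΔEC. Points are group means and lines run from the lowest to the highest of 3 libraries. Fabp4 is highest at 146.6 and 143.2 CPM per kb, and Meox2 lowest.

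By the root mean square difference of log2 CPM, each centred on its own mean, over the 6 libraries, the genes most like Fabp4 of 10441 compared were Tcf12 (0.0068), Hnrnpul2 (0.0126) and Ubap2l (0.0134), against a median of 0.124 over all compared genes. All 3 had, like Fabp4, nearly the same level in every library.

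The wider fatty acid genes were described by 9 lists. In 6 of them 0 genes were called by edgeR and in 3 of them 1 gene was called, lower in each case, against 1.13% of all tested genes called in either direction. The 3 called genes were Pcsk5, Mgll and Acvrl1. Of the 8 tested genes for the maturation, cofactors and inhibitors of lipases, whose median log2 fold change was -0.13, Pcsk5 was called. Pcsk5 encodes a proprotein convertase that can cleave and inactivate endothelial and lipoprotein lipase. It had 78.6, 88.7 and 98.8 CPM in CTRL and 62.5, 56.1 and 65.6 CPM in RbpjΔEC, without overlap. In log2 terms it fell by 0.53 (standard error 0.0933, edgeR quasi-likelihood adjusted p 0.0239), a call that was lost when CTRL 3, RbpjΔEC 1 or RbpjΔEC 2 was left out (adjusted p up to 0.112 from the same test). The related convertase Pcsk6 had a log2 fold change of -1.10 and did not pass (0.104 from the same test).

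Of the 18 tested genes of lipid droplets and triglyceride turnover, whose median was -0.02, Mgll was called. Mgll encodes monoglyceride lipase, the last step of triglyceride breakdown. It had 210.8, 191.5 and 212.7 CPM in CTRL and 159.0, 142.9 and 158.9 CPM in RbpjΔEC, again without overlap. In log2 terms it fell by 0.42 (standard error 0.0733, edgeR quasi-likelihood adjusted p 0.0239), a call lost on leaving out CTRL 1 or 3 or RbpjΔEC 1 or 2 (adjusted p up to 0.121). Dgat1, which makes triglycerides from diglycerides, had a log2 fold change of 0.38 and did not pass (0.110 from the same test).

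Of the 12 tested lipoprotein receptors and caveolins, whose median of -0.27 was the lowest of the 9 lists, Acvrl1 was called by edgeR and Acvrl1, Lrp1 and Stab2, 3 genes, by DESeq2. Acvrl1 encodes ALK1, a BMP9 receptor of ECs that also carries LDL across them. It had 251.9, 261.7 and 260.6 CPM in CTRL and 206.9, 201.3 and 216.7 CPM in RbpjΔEC. In log2 terms it fell by 0.31 (standard error 0.0648, edgeR quasi-likelihood adjusted p 0.0468). This call was lost with library size alone (0.0714) and on leaving out CTRL 1 or 3 or RbpjΔEC 1 or 2 (adjusted p up to 0.194). Stab2, a scavenger receptor, had -1.17 and did not pass (0.0761 from the same test). Relative to the pan-endothelial genes Pcsk5, Mgll and Acvrl1 did not pass, with log2 fold changes of -0.33, -0.21 and -0.11. On that scale other genes of the lists passed instead, Lrp1 (-1.06) and Stab2 (-0.96) with lower values and Dgat1 (0.57) and Nr1h2 (0.37) with higher ones (edgeR quasi-likelihood adjusted p between 0.0265 and 0.0495). Dgat1 also passed without CTRL 2 and without a low-count filter.

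The remaining 6 lists had 0 genes called by edgeR's quasi-likelihood test. Their counts stand beside 17.5% of all tested genes with an unadjusted p under 0.05 and 1.52% called by DESeq2. Of the 9 tested fatty acid transport proteins and acyl-CoA synthetases, which activate fatty acids for use in the cell, unadjusted p values under 0.05 were held by 3 genes with lower and 0 with higher values, with a median log2 fold change of -0.16 and 0 called by DESeq2. The smallest p values were those of Slc27a3 (-0.52) and Acsl4 (-0.24). Slc27a2, a transporter of the proximal tubule named after its values were seen, ranged from 4.96 to 21.6 CPM in CTRL and from 12.6 to 50.3 CPM in RbpjΔEC. The proximal tubule gene Lrp2, an endocytic receptor, ranged from 13.7 to 40.4 and from 29.0 to 129.2 CPM, and RbpjΔEC 3 was the highest library for both.

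VEGF-B signaling can raise fatty acid uptake by ECs. Its list of 7 tested genes held Vegfb, Flt1 and Nrp1, and beside them Apln, Aplnr, Hif1a and Epas1, which are not VEGF-B ligands or receptors. Unadjusted p values under 0.05 were held by 3 genes with lower values (Flt1, Nrp1 and Epas1) and 1 with higher values (Apln). The median of the list was -0.24. DESeq2 called 2 of them lower, Nrp1 (edgeR log2 fold change -0.35, adjusted p of 0.0975) and Flt1 (-0.24, adjusted p of 0.137). Of the 19 tested genes of mitochondrial fatty acid oxidation, 3 had unadjusted p values under 0.05, all with lower values and a share close to that of all genes, with a median of -0.08, led by Etfa (-0.36) and Echs1 (-0.27), and DESeq2 called 0. The 15 tested PPAR and RXR receptors, cofactors and related transcription factors had a median of -0.07, unadjusted p values under 0.05 for 1 gene with higher and 0 with lower values and 0 called by DESeq2. The smallest p values there were those of Nr1h2 (0.17), an oxysterol receptor, and Tcf21 (-1.49), which had at most 15 counts in a library. Of 10 tested PPAR target genes outside the members, 0 had an unadjusted p under 0.05 and 0 were called by DESeq2, with a median of -0.05. The log2 fold change was -0.33 for Klf10 and -0.10 for Plin2, the coat protein of lipid droplets. The 5 tested other fatty acid binding proteins had a median of -0.02, with unadjusted p values under 0.05 for 1 gene with higher and 0 with lower values (Fabp9) and 0 called by DESeq2. The next smallest p in that list was that of Acbd5 (-0.15), an acyl-CoA binding protein.

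**Figure D5:**
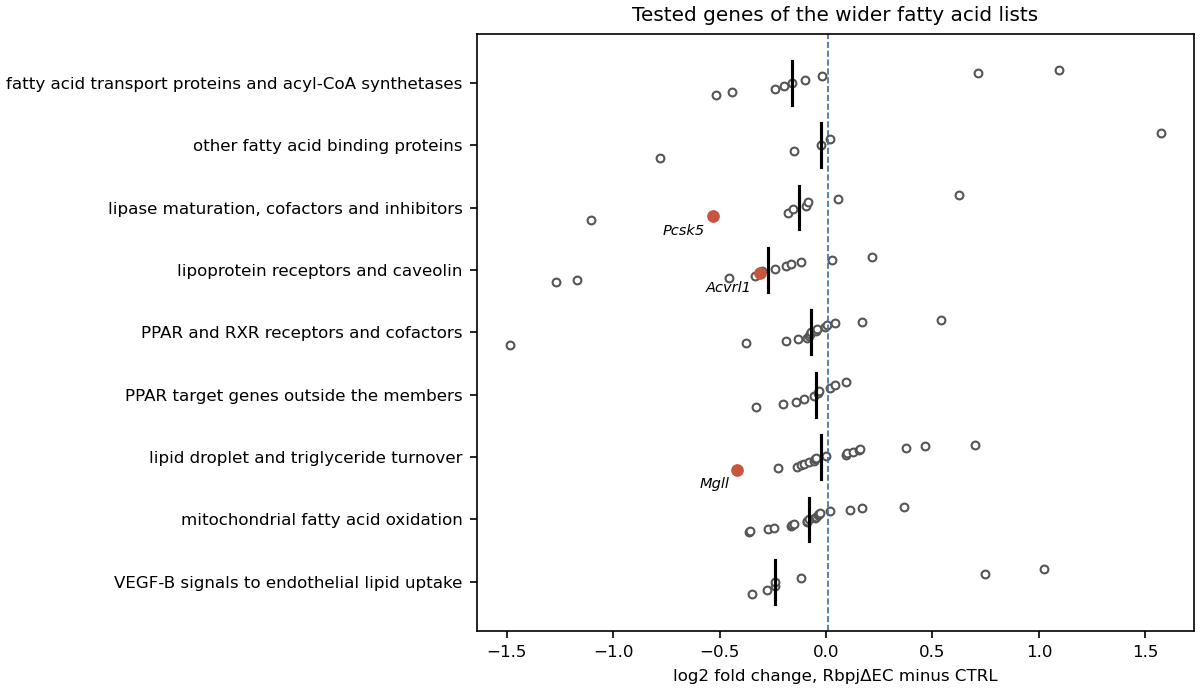
Log2 fold change (RbpjΔEC minus CTRL) of every tested gene in 9 lists of fatty acid handling. Open circles did not pass, filled circles (Pcsk5, Acvrl1, Mgll) were called lower, black bars are list medians and the dashed line is the median of all tested genes, 0.01.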

How the data were processed

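RNA of sorted kidney ECs from 3 CTRL and 3 RbpjΔEC mice was analysed. The authors ran nf-core/rnaseq 1.4.2 on GRCm38.p6 with GENCODE M25 and deposited raw counts per gene as whole numbers. The submitters' processing notes name Trim Galore 0.6.4, STAR 2.6.1d and featureCounts of Subread 1.6.4. The strand setting of the counting is not given in the sources used here. Groups were taken from the labels.

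From the counts, TMM factors, CPM and log2 fold changes were computed with edgeR 4.0.16 in R 4.3.3 (filterByExpr, estimateDisp and robust glmQLFit, quasi-likelihood test), with Benjamini-Hochberg adjustment over all 18438 tested genes and a threshold of 0.05. The fit was tested on simulated data. DESeq2 1.42.0 (Wald test, outlier and independent filtering off, no prior on fold changes) was an alternative, as were other scalings and filters, a replicate block and each library left out. Coordinates and exonic lengths came from GENCODE M21 on GRCm38, and genes can differ from M25. Log2 CPM used a prior count of 2.

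The members and lists were chosen with earlier results of these data known. Named are all members, in each fatty acid list the genes called (at most 4) and those of smallest p up to 2 in all, in each marker list the highest gene and defining genes near 0, Hey1, and the 3 genes most like the member of highest level per kb. The total counts limit precision, as 3 counts were at most 0.0749 CPM. Counting error is only part of the spread between mice.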

Additional observations from a re-analysis of the deposited data

How the results depend on the processing

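Lpl was lower under all 13 alternatives. The number of members called lower was 1 as reported, 3 without a low-count filter (Lpl, Cd36 and Pparg) and between 0 and 1 without 1 library in turn. The number called higher was 0 as reported, 1 with DESeq2 and 1 without a low-count filter (Tcf15 in both), 3 relative to the pan-endothelial genes (Tcf15, Fabp5 and Gpihbp1), and between 0 and 1 without 1 library in turn. Fabp4 reversed to 0.0091 with library size alone and to 0.165 relative to the pan-endothelial genes. Over all genes, the 209 calls became 1436 without a low-count filter, 1350 relative to the pan-endothelial genes, 584 with DESeq2, 344 with the replicate block, and between 21 (without RbpjΔEC 1) and 700 (without CTRL 2) with 1 library left out. Of the calls, 106 were higher and 103 lower, against 159 and 82 with library size alone and 1261 and 89 relative to the pan-endothelial genes. The cause of these shifts was not tested. Without a filter 38324 genes were tested and the share called went from 1.13% to 3.75%.

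Replicate numbers are shared between the groups, and the labels do not say whether they pair the mice. Deviations of same-numbered libraries correlated across genes with r of 0.0231, 0.00916 and 0.00544. Other pairs of libraries had r from -0.0628 to 0.048, so these values cannot decide whether the mice were paired. With the replicate block, Lpl passed at edgeR quasi-likelihood adjusted p 0.00749, the number of members called was the same, Acvrl1 did not pass (0.0579), and Slc27a2 (1.04), Lrp1 (-1.29) and Stab2 (-1.11) did. Lipg and Meox2, at a few to 36 counts per library, are limited by depth.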
